A study of Homo sapiens with 6 samples.

Results

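The genes described here carry out or control macroautophagy, the process by which a cell wraps part of its cytoplasm in a membrane and delivers it to the lysosome, and they include the kinase complex mTORC1 that holds this process in check. They were chosen by symbol from a list of 60 genes, and an alternative splicing event of such a gene was a member when each of the 6 libraries had at least 10 reads on it and a coverage score of LOW or better. By this rule 56 of the 60 genes had 2335 events, among 304901 events that met the same coverage in the whole table. GABARAPL1, PRKAA2 and WIPI1 had no event with this coverage, and RRAGA was not analysed here.

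The data came from SKNBE2, a human neuroblastoma cell line with amplified MYCN. The 3 DFMO libraries were from cells held for 4 days in 250 µM DFMO (difluoromethylornithine), which blocks ornithine decarboxylase and with it the synthesis of polyamines. The 3 Control libraries were from the same line, with no agent named in their labels, and MYCN amplification was common to both groups. The labels give 1 line, and nothing in them says that replicates came from separate cultures. The p values thus rest on the spread between these libraries, which may be technical and was in part pooled over events. Each event carries a percent, which for an exon is the share of transcripts that include it, for an intron the share that retains it, and for a splice site the share that uses it. Values are in the order of replicates 1, 2 and 3, errors are SD with n = 3 unless an SE is named, and coordinates are GRCh38.

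In starved cells the ULK kinase complex starts an autophagosome, a lipid kinase complex built on Beclin 1 marks the site with a phosphoinositide, lipid carriers feed the growing membrane, and a conjugation system related to that of ubiquitin attaches ATG8 proteins to it. Cargo receptors tie protein aggregates and organelles to the ATG8 proteins. When amino acids are plentiful, Rag GTPases bring mTORC1 to the lysosome, where RHEB activates it. Active mTORC1 phosphorylates the ULK complex and keeps TFEB, a transcription factor of lysosome genes, out of the nucleus. AMPK, the kinase that senses low energy, acts against mTORC1 and in favour of ULK1. Spermidine, a polyamine, is known to induce autophagy in several organisms.

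Of the 2335 events, 240 were the mirror form of a choice between a pair of splice sites. A further 1984 had a mean percent under 5 or over 95, and in these the group means differed by -5.90 to 5.57 points. The other 111 events, in 42 genes, were tested on the log2 odds of inclusion with limma, and they comprised 50 exons, 26 introns, 22 acceptor sites (the 3′ ends of introns) and 13 donor sites (the 5′ ends). A call required an adjusted p under 0.05 together with a distance of 10 points or more between the means of the groups.

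Calls fell on BECN1, FNIP2, ATG13 and ATG2B, with 6 of the 111 events or 5.41%, against 2.96% of the 16349 events tested in the whole table. The 6 events are fewer than 6 separate results. They hold 2 forms of 1 ATG2B choice, whose call was lost on raw reads, and 2 BECN1 exons that are not independent of each other. Of the 50 exons, 4 were called, all with higher inclusion in DFMO cells, which is 8% of the member exons, against 3.45% of the 7500 exons tested in the whole table. Of the 22 acceptors, 2 were called, and these were nearly complementary forms of 1 choice in ATG2B, against 1.16% of all tested acceptors. None of the 26 introns was called by limma, against 3.8% of all introns, and 6 of the 26 had an unadjusted p below 0.05. None of the 13 donors was called by limma, against 2.28% of all donors, and 2 of the 13 had an unadjusted p below 0.05. Libraries of the groups did not overlap in 30 of the 111 events, or 27%, against 23.1% of all tested events.

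The calls rest on the spread that limma estimates as a trend over all events of a class. For introns and acceptors the spread came wholly from that trend, and for donors nearly so. The spread between the libraries of a single such event therefore hardly enters its p. When limma was fitted without that trend, 0 of the 111 events were called, the smallest adjusted p was 0.0912, and 20 events had an unadjusted p below 0.05. A quasi-binomial test of each event on its own also called 0, with 11 events at an unadjusted p below 0.05.

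**Figure D1:**
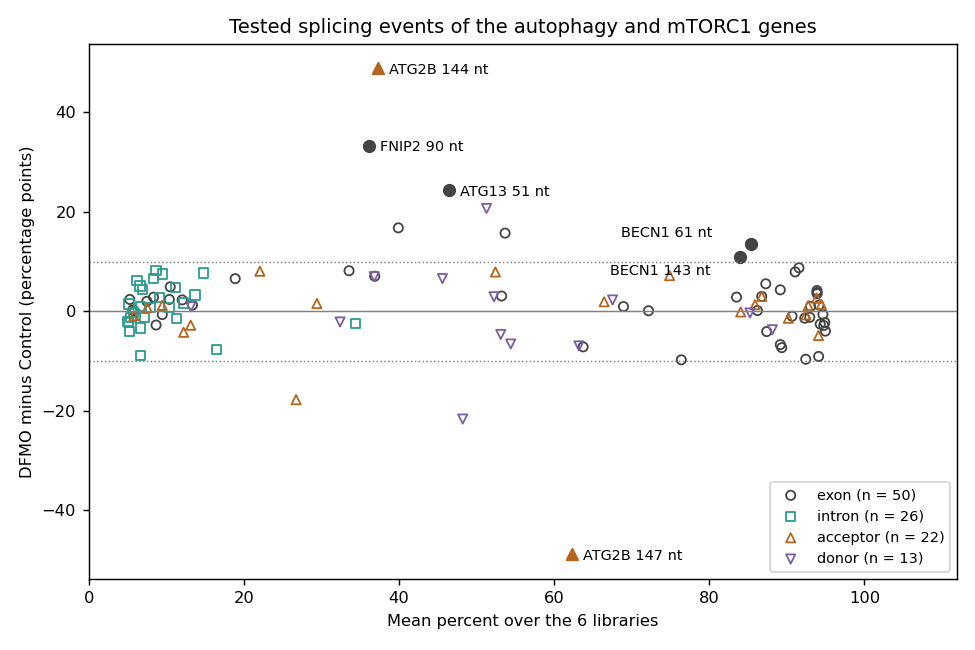
Each symbol is 1 of the 111 tested events, placed by its mean percent over the 6 libraries (horizontal axis) and by the DFMO minus Control difference in percentage points (vertical axis). Filled symbols are the 6 called events, and the dotted lines mark 10 points in either direction. The 2 ATG2B acceptors are nearly complementary forms of the same choice and lie at 48.8 and -48.9 points.

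In the complex that starts autophagosome nucleation, both called events were in BECN1. Beclin 1, its product, is the scaffold that holds the lipid kinase VPS34 to its partners ATG14 or UVRAG. The 2 events are neighbouring coding exons, numbers 10 and 11 of 12 in the transcript used here for the sequence, and their exon bases are shown in capitals between the 10 nearest bases of the adjoining exons in lower case. They are given because neither length is a multiple of 3 while their sum, 204 nt, is.

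BECN1 exon 10, minus strand: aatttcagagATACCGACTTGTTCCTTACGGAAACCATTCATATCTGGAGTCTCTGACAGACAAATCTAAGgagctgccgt

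BECN1 exon 11, minus strand: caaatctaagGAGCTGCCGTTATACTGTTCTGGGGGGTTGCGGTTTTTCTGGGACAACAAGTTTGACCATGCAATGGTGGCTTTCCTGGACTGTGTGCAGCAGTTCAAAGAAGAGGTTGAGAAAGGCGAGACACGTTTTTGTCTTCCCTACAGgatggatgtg

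The 61-nt exon, at chr17:42813948-42814008, was included at 92.54, 91.94 and 91.91% in DFMO libraries, against 71.63, 80.54 and 83.55% in Control libraries. All 3 DFMO libraries lay above all 3 Control libraries, and the spread was wider in Control cells. The means were 92.1 ± 0.355% with DFMO and 78.6 ± 6.20% in Control, a difference of 13.6 points (log2 odds 1.63, SE 0.29, adjusted p = 0.00546). Skipping reads numbered 17, 15 and 14 in DFMO libraries and 41, 29 and 31 in Control libraries, so the difference was present in the reads of the skipping junction itself.

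The 143-nt exon, at chr17:42811655-42811797, was included at 87.55, 88.45 and 92.18% with DFMO, against 76.55, 76.9 and 82% in Control, again without overlap. Its means were 89.4 ± 2.45% and 78.5 ± 3.05%, a difference of 10.9 points (log2 odds 1.22, SE 0.24, adjusted p = 0.00927). The call was lost on size without DFMO replicate 3 (9.52 points, adjusted p = 0.0286) or without Control replicate 1 (9.94 points, adjusted p = 0.0377). By the table's coordinates, the skipping junction of exon 10 lands on the same downstream exon as that of exon 11, and so passes over both. In GENCODE v29, 1 BECN1 transcript joins across both exons in this way, 2 skip the 143-nt exon alone and 1 skips the 61-nt exon alone. The events therefore share a downstream exon and are not independent of each other.

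AMBRA1, which binds Beclin 1 and brings the lipid kinase into play, had a coding exon of 87 nt at chr11:46512727-46512813. It was included at 66.95, 61.01 and 56.63% with DFMO, against 42.47, 49.73 and 45.26% in Control. The groups did not overlap and differed by 15.7 points, with as few as 38 reads in a library, and the event was not called (log2 odds 0.91, SE 0.40, adjusted p = 0.22). Its sequence is shown as the largest change in this complex, in the same capitals.

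AMBRA1 exon 9 of 19, minus strand: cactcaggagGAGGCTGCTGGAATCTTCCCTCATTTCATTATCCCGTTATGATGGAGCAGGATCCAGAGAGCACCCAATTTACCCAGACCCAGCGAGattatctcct

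Of 8 events tested in the nucleation complex, 6 were higher and 2 lower with DFMO, and those other than the BECN1 exons had adjusted p values above 0.05. A pair of BECN1 donors in this count were forms of the same choice and differed in opposite directions.

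ATG13, the subunit that bridges ULK1 to RB1CC1, carried the called exon of the initiation complex. This 51-nt exon, at chr11:46618325-46618375, lies in the 5′ UTR of the 5 GENCODE transcripts that hold it. It was included at 54.46, 50.98 and 70.61% in DFMO libraries and at 34.27, 34.42 and 34.3% in Control libraries. Control values were nearly equal, and DFMO replicate 3 stood highest. The means were 58.7 ± 10.5% with DFMO and 34.3 ± 0.0794% in Control, a difference of 24.4 points (log2 odds 1.45, SE 0.33, adjusted p = 0.0182). The call was lost without DFMO replicate 3 (18.4 points, adjusted p = 0.0576) or without Control replicate 3 (24.3 points, adjusted p = 0.0643), and over all alternatives the adjusted p ran between 0.00063 and 0.311. Of the 13 events tested in this complex, in ULK2, ULK3, RB1CC1 and ATG13, 7 were higher and 6 lower, and the ATG13 exon alone had an adjusted p below 0.05. The count holds both forms of some RB1CC1 splice-site choices, and such forms differ in opposite directions largely by construction. No event of ULK1 or ATG101 was among those tested.

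FNIP2 showed the widest difference among member exons. Its product binds folliculin, and this pair acts on the RagC and RagD GTPases and so on the control of TFEB and TFE3 by mTORC1. The 90-nt exon, at chr4:158833801-158833890, is coding in the 1 GENCODE transcript that holds it, and its length is a multiple of 3. That transcript has 7 exons and an annotated coding length of 724 nt, which is not a multiple of 3. It therefore does not show the exon within a full reading frame.

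FNIP2 exon, plus strand: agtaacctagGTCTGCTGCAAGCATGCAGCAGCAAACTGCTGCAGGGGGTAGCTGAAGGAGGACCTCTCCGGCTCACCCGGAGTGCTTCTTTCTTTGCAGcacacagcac

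The FNIP2 exon was included at 60.98, 35.33 and 61.82% with DFMO, against 21.82, 19.54 and 17.1% in Control. DFMO replicate 2 lay well under the other DFMO libraries and still above all Control libraries. The means were 52.7 ± 15.1% with DFMO and 19.5 ± 2.36% in Control, a difference of 33.2 points (log2 odds 2.17, SE 0.44, adjusted p = 0.0103). Reads on the upstream and downstream junctions of the included exon were unequal, at 16 and 58 in DFMO replicate 1 and at 30 and 15 in DFMO replicate 2, while skipping reads were 23, 40 and 21 with DFMO and 47, 48 and 73 in Control. Without DFMO replicate 1 the call was lost (29.1 points, adjusted p = 0.0546), and over all alternatives the adjusted p ran between 6.2e-05 and 0.311. Of the 8 events tested in TFE3, FLCN, FNIP1 and FNIP2, 4 were higher and 4 lower, with no other adjusted p below 0.05, and no event of TFEB or MITF was among those tested.

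**Figure D2:**
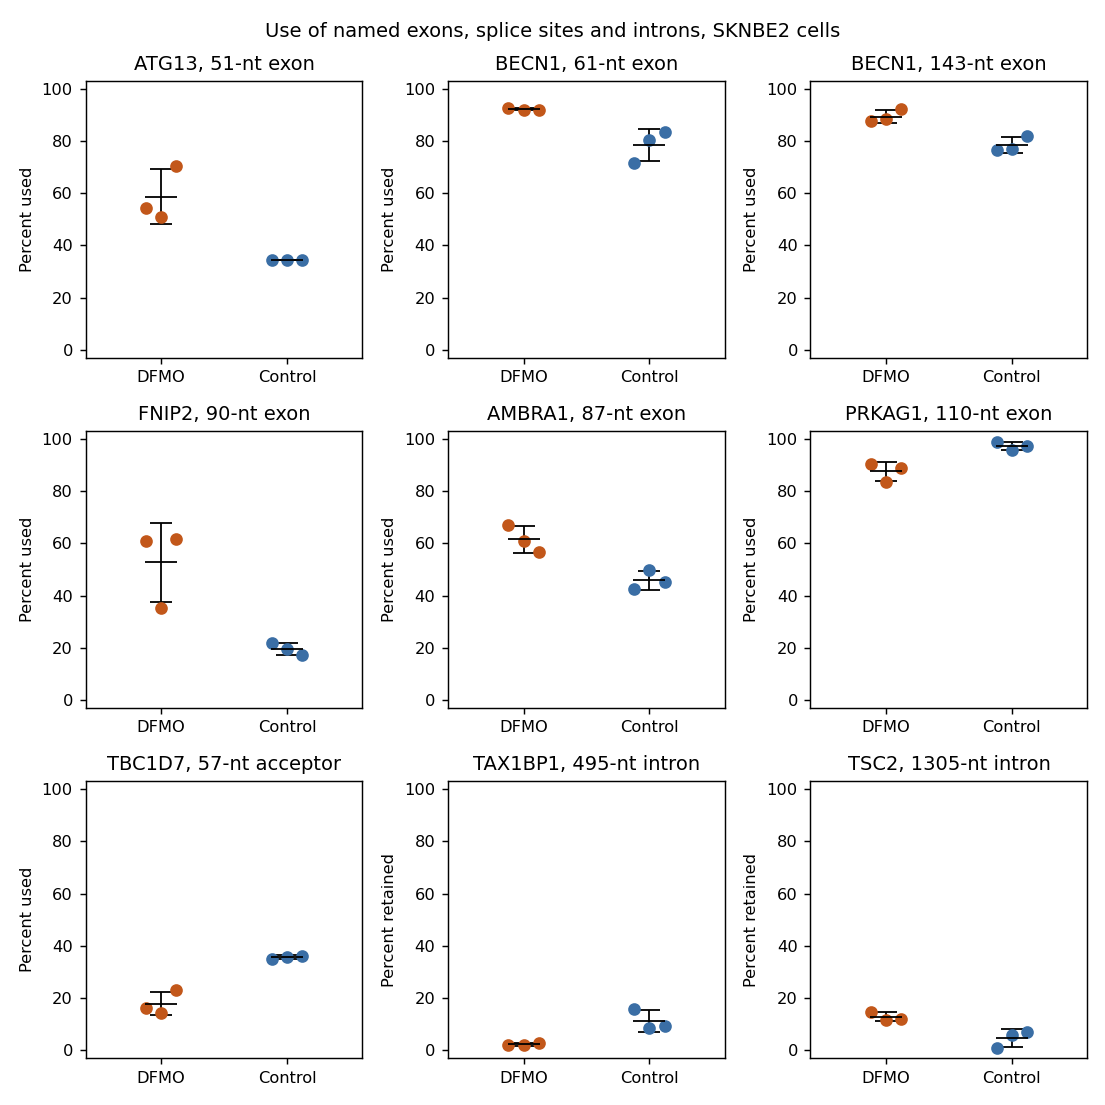
Percent of use (exons and the acceptor) or of retention (introns) in each library for 9 events, with DFMO on the left and Control on the right of each panel; dots are libraries in replicate order and the bars are the mean ± SD (n = 3). In each panel the 3 DFMO dots lie wholly above or wholly below the 3 Control dots, as with 35.33 to 61.82% against 17.1 to 21.82% for the FNIP2 exon. The AMBRA1 and TBC1D7 events were chosen for this lack of overlap, so in their panels it is not a result.

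ATG2B, which moves lipid from the endoplasmic reticulum to the growing membrane, gave the largest difference in percent among the called events, with at least 44 reads in a library, fewer than for any of the other called events. The forms compared here use acceptors 3 nt apart at the start of a coding exon, chr14:96305589-96305815, among further acceptors of the same choice. GENCODE v29 annotates the longer of them and not the shorter. The capitals mark the bases that are present only in the longer, 147-nt form.

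ATG2B acceptor, minus strand: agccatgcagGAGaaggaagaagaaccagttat

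The shorter, 144-nt form had a deposited percent of 65.81, 54.4 and 64.97% with DFMO, against 38.64, 0 and 0% in Control, a difference of 48.8 points (adjusted p = 0.0132). The longer form nearly mirrored it at 34.19, 45.6 and 33.76% with DFMO and 60.23, 100 and 100% in Control (difference -48.9 points, adjusted p = 0.0132). Beside these percents the table lists raw junction reads, and those were few on the shorter acceptor. It had 3 of 56, 2 of 59 and 3 of 58 reads with DFMO, against 1 of 55, 0 of 44 and 0 of 58 in Control.

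As a share of raw reads the shorter form thus came to 5.36, 3.39 and 5.17% with DFMO and to 1.82, 0 and 0% in Control. The exact (Clopper-Pearson) 95% intervals of these shares overlapped in every pair of libraries, with upper bounds of 14.9, 11.7 and 14.4% with DFMO and 9.72, 8.04 and 6.16% in Control. The 0 of 44 and 0 of 58 reads allow a share of up to 6.82 and 5.17% by the limit of 3 counts. Intervals and limits cover counting error only, since reads were not tied to molecules. On raw reads the difference was 4.03 points and the call was lost (adjusted p = 0.591). The ATG2B forms were the only tested member events whose difference moved by more than 5 points between deposited percents and raw reads. The call was also lost without DFMO replicate 1, 2 or 3, with adjusted p values of 0.185, 0.0999 and 0.119 for the shorter form.

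**Figure D3:**
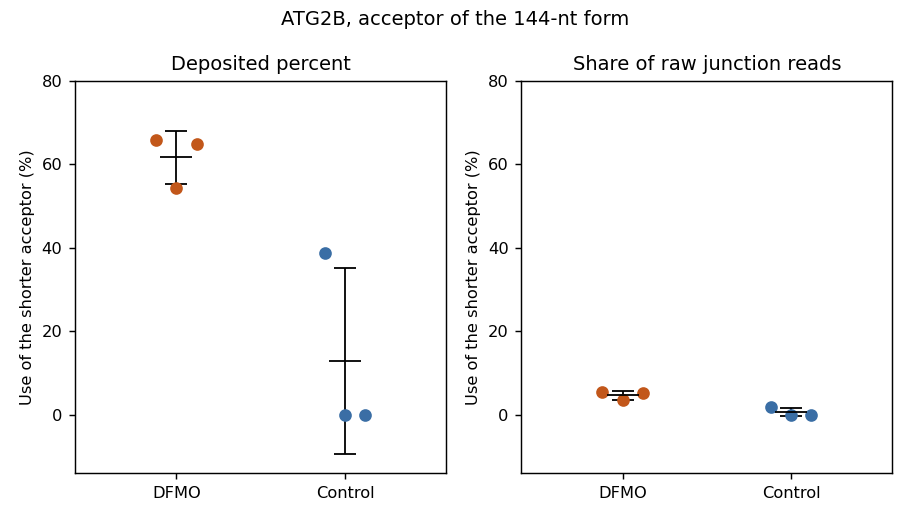
Use of the shorter ATG2B acceptor in each library as the deposited percent (left panel) and as the share of raw junction reads (right panel), both in percent with DFMO left of Control; dots are libraries and bars the mean ± SD (n = 3). The deposited percents reach 65.81% in DFMO libraries, while the raw shares are at most 5.36% in DFMO libraries and 1.82% in Control libraries.

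The lipid carrier ATG2A, related to ATG2B, had a donor choice that differed by -21.7 points for the 73-nt form, with values of 26.5, 50.75 and 34.9% with DFMO and 37.84, 66.3 and 73.01% in Control. These groups overlapped, the libraries had as few as 26 reads, and the adjusted p was 0.238; the event was chosen after its values were seen. Of the 13 events tested in ATG2A, ATG2B, ATG9A, WIPI2 and WDR45, 7 were higher and 6 lower. This count holds both forms of a splice-site choice in each of ATG2A, ATG2B, ATG9A and WIPI2. Such forms differ in opposite directions largely by construction, so the balance is not a result.

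In the conjugation system and the ATG8 proteins, no event of 14 tested in 7 genes had an adjusted p below 0.05 by limma. The widest difference was in ATG12, the ubiquitin-like protein that joins ATG5, where a 116-nt exon at chr5:115840497-115840612 was included at 26.68, 39.63 and 46.59% with DFMO and 28.55, 24.39 and 35.51% in Control. The groups overlapped (difference 8.15 points, adjusted p = 0.582). A 118-nt exon of ATG7, the enzyme that activates ATG12 and the ATG8 proteins, was seen in Control replicate 2 alone. Its deposited percent there was 17.7%. The raw reads, 1 on each of its junctions against 16 skipping reads, gave a share of 5.88%. In the other 5 libraries the exon was at 0%.

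Among the cargo receptors, TAX1BP1 had a 495-nt intron at chr7:27816395-27816889 whose deposited percent of retention was lower with DFMO. Retention was 1.9, 1.9 and 2.73% with DFMO, against 15.84, 8.42 and 9.06% in Control, and the groups did not overlap. The difference of -8.93 points had an adjusted p of 0.00705 and fell short of the 10 points that a call requires. Without Control replicate 1 it was -6.56 points with an adjusted p of 0.096, and without Control replicate 2 it was -10.3 points, past both thresholds (adjusted p = 0.0183). Reads into this intron came mainly from 1 of its ends, with 4, 3 and 4 there in DFMO libraries and 20, 10 and 16 in Control libraries, while the other end had 0, 0 and 0 with DFMO and 0, 3 and 0 in Control. A donor annotated inside this intron, which adds 126 nt to the exon, was used at 13.6% in DFMO and 12.7% in Control means (adjusted p = 0.952), and its part in the reads at that end was not tested. The TAX1BP1 values therefore do not show that the whole intron was retained less with DFMO. A 13-nt exon of SQSTM1, the receptor p62, that GENCODE v29 does not annotate, was included at 55.3, 33.92 and 55.67% with DFMO and 43.67, 25.82 and 25.09% in Control, with overlap (adjusted p = 0.283).

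In AMPK, the TSC complex, the Rag GTPases, GATOR1 and GATOR2 and the mTOR complexes, no event was called, and the events with the lowest adjusted p lay in PRKAG1 and TSC2. PRKAG1 encodes the γ1 subunit of AMPK, which binds adenine nucleotides. Its 110-nt coding exon, at chr12:49005743-49005852, was the only tested member exon with an adjusted p below 0.05 that was included less with DFMO, and its length is not a multiple of 3.

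PRKAG1 exon 3 of 12, minus strand: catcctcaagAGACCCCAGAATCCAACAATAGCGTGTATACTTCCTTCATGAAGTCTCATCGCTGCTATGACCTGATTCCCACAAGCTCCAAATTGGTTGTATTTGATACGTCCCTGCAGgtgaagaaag

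The PRKAG1 exon was included at 90.44, 83.4 and 89% with DFMO, against 98.8, 95.83 and 97.16% in Control. All DFMO libraries were lower, with 12, 20 and 11 skipping reads against 1, 4 and 3 in Control. The difference was -9.65 points (log2 odds -2.32, SE 0.55, adjusted p = 0.0235), just under the size that a call requires. It passed both thresholds without Control replicate 2 (-10.4 points, adjusted p = 0.026), and without any other single library its adjusted p lay between 0.0504 and 0.0891. RPTOR, the subunit that recruits mTORC1 substrates, had a 60-nt coding exon at chr17:80791450-80791509 with 94.33, 95.16 and 98.33% inclusion in DFMO libraries and 91.38, 80.96 and 89.26% in Control libraries. These did not overlap, and the difference of 8.74 points did not pass the test (adjusted p = 0.102).

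The TSC complex, which turns RHEB off, was tested at 11 events in 3 genes, of which 8 were higher and 3 lower with DFMO. Several TSC2 events in this count adjoin each other, as do several TSC1 events, so they are not independent. In TSC2, the subunit that acts on RHEB, the 1305-nt intron at chr16:2077727-2079031 was retained at 14.74, 11.44 and 12.06% with DFMO and at 0.73, 5.93 and 7.11% in Control. The groups were apart by 8.16 points (log2 odds 1.77, SE 0.61, adjusted p = 0.0465), and both ends of the intron had reads in all DFMO libraries. Without each DFMO replicate in turn its adjusted p was 0.18, 0.117 and 0.119, and without Control replicate 1 it was 0.279, with differences of 6.23 to 8.81 points. In TBC1D7, the third subunit, an acceptor that adds 57 nt of 5′ UTR at chr6:13326838-13326963 was used at 16.26, 14.35 and 22.92% with DFMO and at 34.87, 35.8 and 36.19% in Control. Every DFMO library was lower, by 17.8 points in the mean. The adjusted p was 0.148, and the libraries had as few as 37 reads.

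The remaining regulators differed less. Of 13 events in 6 genes of GATOR1 and GATOR2, which pass amino acid signals to the Rag GTPases, 10 were higher and 3 lower, none with an adjusted p below 0.05. Some NPRL3 exons among them share a downstream exon, as do the DEPDC5 exons, so these events are not independent. Beside this and the other role counts, 60.3% of all tested exons, 53.2% of introns, 50.3% of acceptors and 47.2% of donors were higher with DFMO. The widest was a 77-nt intron of WDR24, retained at 23.08, 22.05 and 10.67% with DFMO and 7.87, 6.67 and 18.2% in Control, with overlap (adjusted p = 0.269). RRAGB, a Rag GTPase, had a 19514-nt intron at 3.97, 4.44 and 1.4% with DFMO and 8.57, 9.33 and 3.92% in Control, with overlap (adjusted p = 0.184). Reads into this intron came from 1 of its ends alone, with 0 at the other end in every library. These values therefore do not show that the whole intron was retained. SESN1, a sestrin that acts on GATOR2 when leucine is low, had a 1735-nt intron whose mean lay under 5% and which was not tested. It was retained at 6.78, 3.64 and 11.11% with DFMO and at 1.75, 1.27 and 1.79% in Control.

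Among all 50 tested exons, 33 had a higher and 17 a lower mean with DFMO, or 66% higher against 60.3% of all tested exons, and the median difference was 1.63 points against 1.24 over all. The median retention of the 26 tested introns was 9.08, 9.18 and 9.06% in DFMO libraries and 6.64, 6.39 and 8.93% in Control libraries, while that of all 3684 tested introns was 10.4, 10.5 and 9.49% with DFMO and 9.29, 9.10 and 10% in Control. Of the 50 exons, 38 matched an exon of GENCODE v29 at both ends and 31 were coding in at least 1 transcript, of which 14 had a length that is a multiple of 3.

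Levels of the genes were read from a junction-read proxy, which averages log2 of 1 plus the scaled reads (per 1e+06 event reads of the library) over a gene's exon events. Adding 1 understates the change of low genes, and most members lay under 2 on this scale. Fewer cells of a type and less RNA per cell cannot be told apart in such bulk libraries. The proxy was measured for 54 members, and at an adjusted p below 0.05 (limma), 8 rose, or 14.8% against 20.5% of the 9232 genes measured, and 11 fell, or 20.4% against 24.9%. None reached a 1.5-fold change by limma, against 0.347% of all genes, and 24 of the 54 had an unadjusted p below 0.05. The median difference over the members was -9.7e-05 on the log2 scale, against -0.01 over all genes.

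The receptor SQSTM1, which is itself degraded by autophagy as a protein, had the lowest difference. Its proxy was 1.78, 1.84 and 1.85 with DFMO, against 2.15, 2.12 and 2.17 in Control. It fell by 0.32 on the log2 scale (SE 0.03, adjusted p = 0.00012), with all DFMO libraries lower. The receptors TAX1BP1 and NBR1 rose, by 0.13 and 0.12 (SE 0.03 and 0.04, adjusted p = 0.00914 and 0.021), and OPTN differed by 0.07 (adjusted p = 0.342).

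BECN1 rose. Its proxy was 2.75, 2.74 and 2.69 with DFMO, against 2.49, 2.49 and 2.49 in Control, a difference of 0.24 (SE 0.03, adjusted p = 0.00026). Included exons add reads to the proxy, and with exons of at least 95% inclusion alone the difference was 0.22 (adjusted p = 0.00042). Its partners ATG14, UVRAG and AMBRA1 differed by 0.04, 0.01 and -0.05, none past the test (adjusted p = 0.477, 0.888 and 0.341).

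The initiation complex held members that rose and members that fell. ATG13 rose by 0.13 (SE 0.04, adjusted p = 0.0232), while ATG101, which stabilizes ATG13, fell by 0.22 (SE 0.05, adjusted p = 0.00625) and the kinase ULK1 fell by 0.09 (SE 0.03, adjusted p = 0.0482). The ATG101 proxy was 1.65, 1.69 and 1.52 with DFMO and 1.83, 1.89 and 1.80 in Control. ULK2, RB1CC1 and ULK3 differed by 0.07, 0.05 and 0.04, none past the test (adjusted p = 0.0772, 0.248 and 0.313). The ULK1 result missed the threshold under 10 of the 13 alternatives run, with an adjusted p of up to 0.143. ATG13 missed it without DFMO replicate 1, DFMO replicate 2 or Control replicate 3 (0.13, 0.11 and 0.10, adjusted p = 0.0643, 0.0772 and 0.0761).

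Among genes of membrane supply, ATG9A, the scramblase carried on vesicles, rose by 0.15 (SE 0.03, adjusted p = 0.00279). WIPI2, which binds the phosphoinositide made by the Beclin 1 complex, fell by 0.16 (SE 0.03, adjusted p = 0.00469), and ATG2B fell by 0.10 (SE 0.03, adjusted p = 0.0331). The ATG2B level missed the threshold without any 1 library other than Control replicate 1, with an adjusted p of 0.0522 to 0.1, and with the replicate block (adjusted p = 0.0659). WDR45 and ATG2A differed by 0.07 and -0.05 and did not pass (adjusted p = 0.112 and 0.349).

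In the conjugation system, the E2-like enzyme ATG3 fell by 0.19 (SE 0.04, adjusted p = 0.0057), as did ATG5 by 0.15 (SE 0.03, adjusted p = 0.00562) and ATG16L1 by 0.12 (SE 0.03, adjusted p = 0.0133). ATG12 rose by 0.16 on exon events (SE 0.06, adjusted p = 0.0413), but on intron events its difference was -0.13 (adjusted p = 0.018), so its direction depends on the events read. Without any 1 library other than DFMO replicate 3, the adjusted p of ATG12 on exon events was 0.0705 to 0.11. TFEB fell by 0.12 (SE 0.03, adjusted p = 0.0203), though not without DFMO replicate 2, DFMO replicate 3 or Control replicate 3 (-0.11, -0.10 and -0.11, adjusted p = 0.0555, 0.0642 and 0.0585). TFE3, FNIP1, FNIP2, FLCN and MITF differed by -0.05, 0.05, -0.06, 0.01 and -0.00027 (adjusted p = 0.31, 0.391, 0.208, 0.834 and 0.997), with the sign of MITF turning under median scaling.

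Of the genes that control mTORC1, RRAGB had the highest difference. Its proxy was 1.43, 1.42 and 1.41 with DFMO, against 1.11, 1.20 and 1.19 in Control, and it rose by 0.26 (SE 0.03, adjusted p = 0.00047). AKT1S1, the mTORC1 inhibitor PRAS40, fell by 0.22 (SE 0.05, adjusted p = 0.00622), while MTOR, RPTOR, RICTOR and MLST8 did not pass, with differences between -0.02 and 0.11. PRKAG1 rose by 0.15 (SE 0.03, adjusted p = 0.00721), and STK11, the kinase LKB1 that activates AMPK, fell by 0.17 (SE 0.03, adjusted p = 0.00226). None of the 6 GATOR genes, the 3 genes measured of the TSC complex or the 2 sestrins passed by limma, with differences between -0.06 and 0.08.

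**Figure D4:**
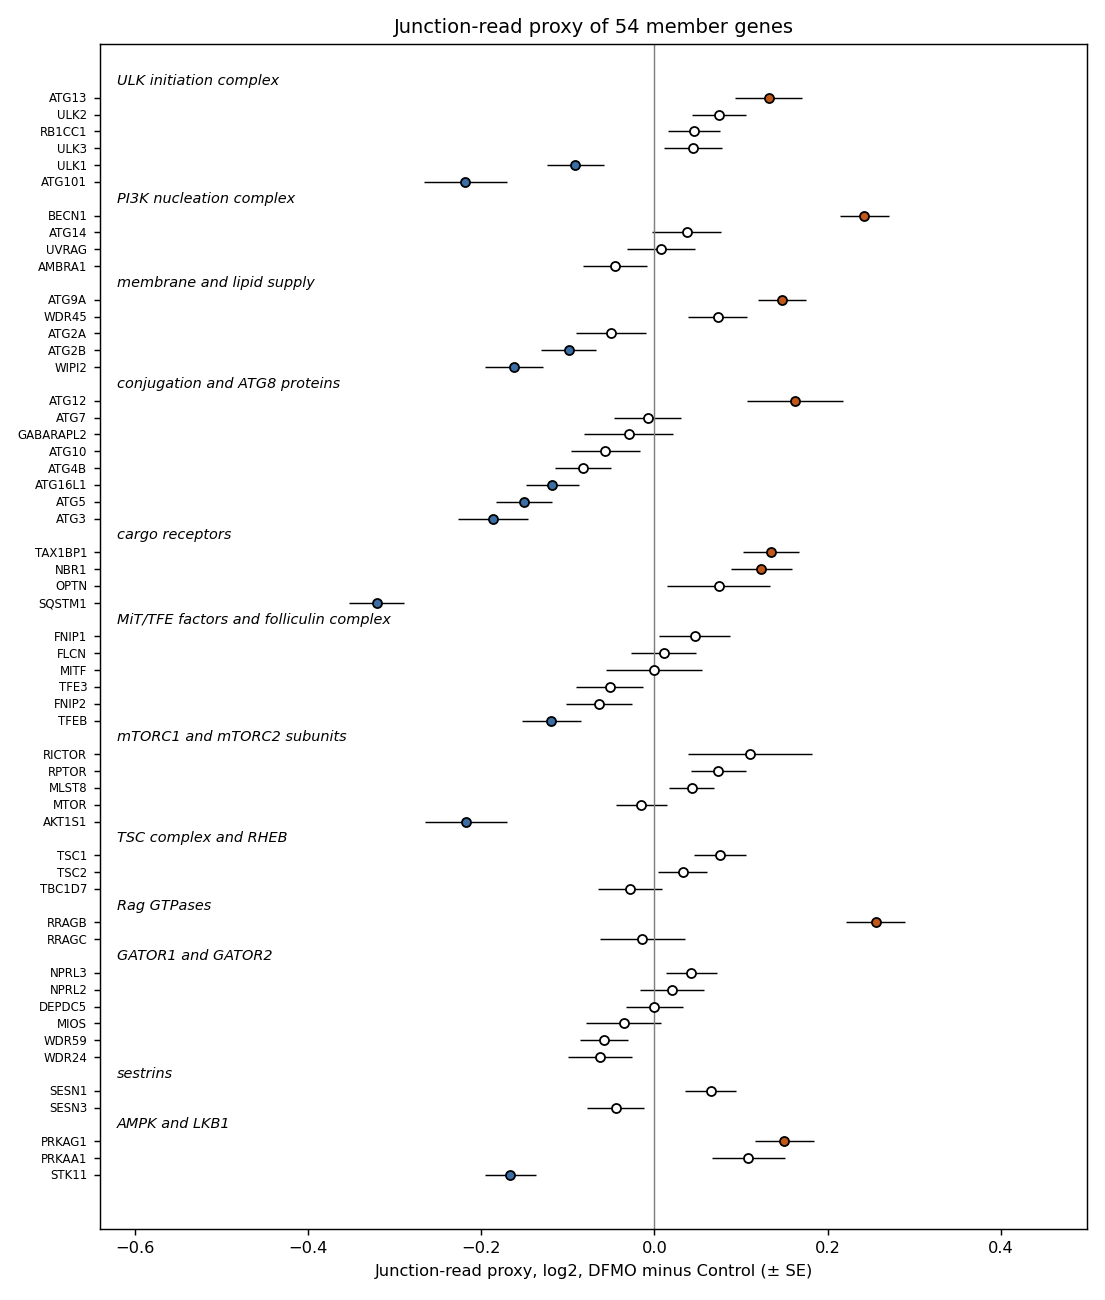
Difference of the junction-read proxy, DFMO minus Control on the log2 scale (horizontal axis), for the 54 measured genes grouped by role (vertical axis); points are the estimates, bars ± SE, and filled points have an adjusted p below 0.05. Filled points run from -0.32 for SQSTM1 to 0.26 for RRAGB, and groups such as the cargo receptors hold points on both sides of 0.

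The libraries held 77648922 to 103250467 event reads, a sum in which a read counts once for each event it touches. Exon reads had, within a group, a variance between libraries 2.01 to 2.36 times that of counting. All 14 noradrenergic neuroblastoma markers were measured by the proxy, with group means of 1.02 to 7.13, and 9 of them passed the test, 6 higher and 3 lower with DFMO. Differences of CHGB, PHOX2A and GATA3 (log2 0.49, 0.49 and 0.43) and of STMN2 (-0.41) were larger than those of any of the 54 measured members. Of 10 mesenchymal markers 3 were measured (CD44, FOSL2 and VIM, with means of 0.59 to 2.75), and of 9 markers of other cell types 1 was, at 0.39 to 0.47, and none of these 4 passed (limma). The part of these markers in the differences of the members was not tested.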

How the data were processed

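The submitters deposited 1 table of splicing events, in which the authors' unit for each library was a percent, with a quality text that gives a coverage score and reads. The submitters' processing notes name GRCh38 as the genome build. Which aligner and which quantifier were used is not given in the sources used here. Per the labels, single reads came from stranded mRNA libraries. All 6 libraries were used, 3 per group.

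Events with a coverage score of LOW or better, at least 10 reads in each library and a mean percent of 5 to 95 were tested over the whole table. Log2 odds of the corrected inclusion and exclusion reads, with 0.5 added to each, entered a limma fit (version 3.58.1, R 4.3.3) with a robust variance trend on the log of the expected counting variance. Two-sided p values were adjusted per class by the Benjamini-Hochberg method. A call needed an adjusted p below 0.05 and 10 points. The fit was also run on simulated reads, with the same extra spread set for every event and without the read correction. That run therefore does not check the single calls made here.

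The junction-read proxy scaled each library to 1e+06 event reads and was fitted with limma, and a called gene had to change 1.5-fold. Because it averages reads over exon events, it moves with inclusion too. GENCODE v29 gave exons and transcript sequences.

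The 60 genes, the role groups and the lists of other autophagy, other mTORC1 pathway and lysosome genes were chosen with earlier results of these data known. Named events were those called, those with an adjusted p below 0.05, those apart by 10 points without overlap, the widest of each role group, and untested events differing by 5 points. Named genes of the proxy were the 5 highest, the 5 lowest and the partners of genes with a called event; other genes past the test were added after their values were seen. Of the other lists, up to 4 called events and called genes each were named by size, and genes or events named beyond that were chosen after their values were seen. Same-numbered libraries did not deviate together (correlations of -0.0202 to -0.0022 for equal numbers), so the main fit had no replicate block.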

Additional observations from a re-analysis of the deposited data

How the results depend on the processing

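Member calls numbered 6, and 0 without the variance trend in limma (all events 14, against 484) or by the quasi-binomial test (all events 0, with 1654 at an unadjusted p below 0.05). Leaving out 1 library gave 2 to 8 member calls and 306 to 420 over all events, with 3 member calls without DFMO replicate 1 and 2 without DFMO replicate 3. Without a size threshold 873 events were called over the table, and with a pooled counting variance, an alternative chosen after seeing the data, 314. A pseudocount of 0.5 gave 78 called genes in the proxy, against 32, with 0 members either way. The replicate block gave 6 member calls, 469 over all events and 32 called genes in the proxy; the numbers did not pair the libraries. Of 652 alternatives to 44 named results, 577 kept direction and side of the threshold, 60 lost the threshold, 6 passed it and 9 turned round. The threshold was the call (adjusted p and 10 points) for the 16 events and the adjusted p alone for the 28 genes of the proxy. The uncalled events of PRKAG1, TAX1BP1 and TSC2 therefore count as kept where their adjusted p was no longer below 0.05, which was so under 8, 3 and 11 of 18 alternatives. Those that turned were MITF (0.0107 under median scaling, -0.0471 to 0.0418 with a library left out), ATG12 (-0.133 on intron events), FLCN (-0.0175 to 0.028) and UVRAG (-0.0277 to 0.0269), the last 2 with a library left out, all in the proxy; the cause was not tested. Raw reads, also added after seeing the data, kept the BECN1, FNIP2 and ATG13 calls. Reads in a library were as few as 38 for AMBRA1, 37 for TBC1D7, 26 for ATG2A and 44 for ATG2B, and the part of depth in these results was not tested. For introns and acceptors limma took the spread wholly from the trend, so the spread of 1 event's own libraries hardly enters its p, and for donors nearly so (prior df 749.8).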

Other observations

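Genes of the same pathways outside the 60 also had called events. Their 3 lists were chosen with earlier results of these data known, so shares above those of all events are not a result about the pathways. Of 73 events tested in 27 other mTORC1 pathway genes, 7 were called, 5 with a higher and 2 with a lower percent in DFMO cells, or 9.59% against 2.96% of all 16349 tested events. A higher and a lower one of the 7 were forms of the same LARP1 donor choice. CAMKK2 held 2 more of the 7, the exon given next and a 129-nt exon (15.8 points, limma adjusted p = 0.0302). CAMKK2, a kinase that activates AMPK, had a 43-nt exon at 28.6, 18.11 and 40.76% in DFMO libraries and 9.32, 5.06 and 8.61% in Control libraries (difference 21.5 points, limma adjusted p = 0.03). All 3 DFMO libraries lay above Control. STRADA, the pseudokinase partner of LKB1, had a donor that was used at 69.95, 60.32 and 63.71% with DFMO and 79.25, 82.94 and 92.92% in Control (-20.4 points, adjusted p = 0.00591). LARP1, which represses translation of terminal oligopyrimidine mRNAs downstream of mTORC1, had a donor used at 55.12, 57.53 and 56.73% with DFMO and 79.6, 73.53 and 75.77% in Control (-19.8 points, adjusted p = 7.5e-07). MAPKAP1, the mTORC2 subunit SIN1, had an 82-nt exon at 62.5, 63.38 and 60.23% with DFMO and 47.72, 48.11 and 48% in Control (14.1 points, adjusted p = 0.00171). The libraries of each group were close to each other in the last 2 genes.

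Of 70 events tested in 29 lysosome genes, calls fell on 2 that were higher and 1 that was lower with DFMO, or 4.29%, near the 2.96% of all tested events. A 6-nt microexon of PSAP, which encodes the precursor of the saposins, was included at 28.55, 29.58 and 29.41% with DFMO and 17.8, 20.32 and 17.45% in Control (10.7 points, adjusted p = 0.0002). A 172-nt exon of ATP6V0A1, a subunit of the proton pump that acidifies lysosomes, rose to 96.2 ± 3.54% with DFMO, against 86.1 ± 3.65% in Control (10.1 points, adjusted p = 0.0289). A donor of CTSL, the protease cathepsin L, fell to 14.1 ± 0.618% with DFMO, against 26.1 ± 3.67% in Control (-12.0 points, adjusted p = 0.0187). None of 42 events in 12 other autophagy genes was called by limma, against the same 2.96% of all events. In this list 8 events had an unadjusted p below 0.05, and 1 had an adjusted p below 0.05, a 136-nt exon of BCL2L13 (7.94 points, adjusted p = 0.0264).

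In the junction-read proxy, 25 of 65 lysosome genes rose and 12 fell, or 38.5% and 18.5%, against 20.5% and 24.9% of all genes, with a median log2 difference of 0.04 against -0.01 over all genes. ATP6V1G2, a neuronal subunit of the proton pump read from 1 exon event, was the 1 called gene, 1.595-fold higher with DFMO (log2 0.67, SE 0.06, limma adjusted p = 5.7e-05). The cathepsin CTSF and the sulfatase IDS rose 1.35-fold and 1.33-fold, while the pump subunit ATP6V0A2 fell by 0.30 on the log2 scale (limma adjusted p = 5.8e-05, 4.4e-05 and 0.00037). Of 30 other autophagy genes 12 rose and 5 fell, or 40% and 16.7%, against the same shares of all genes. Of 40 other mTORC1 pathway genes 9 rose and 7 fell, or 22.5% and 17.5%, the first near the share of all genes. The 3 lists share the Control libraries and the choice of scale with the results above, and what moved these genes was not tested. Because the lists were chosen with earlier results known, shares above those of all genes are not a result about the pathways.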
